A study of Mus musculus with 4 samples.

Results

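The BAF complex, the mammalian SWI/SNF chromatin remodeller, was followed through the genes of those subunits that differ between its stem cell, neural progenitor and neuronal forms. The genes were taken by symbol: Actl6a, Actl6b, Phf10, Dpf1, Dpf3, Smarcc1, Smarcc2, Smarcd1, Smarcd3 and Ss18l1. Of these 10 genes, 8 had a probe set whose annotation names that gene alone, out of 22180 genes so measured on the arrays. The probe sets of the remaining 2, Actl6a and Smarcd3, also name another gene (Mrpl47 and Chpf2), so their signal could not be assigned and no value is given for them. Wild-type mouse embryonic stem cells had been turned into retinal aggregates in medium with matrigel, and RNA was taken on day 7 (2 arrays) and on day 4 (2 arrays). All 4 samples came from the 129/Ola line EB5 with GFP inserted at Rx (Rax), a gene of the eye field. They carried no further genetic change or drug that the labels name. Nothing in the labels tells whether replicates came from separate cultures. The p-values therefore describe the spread of these 4 samples, which could be technical. Those of limma also draw on a variance prior, the typical spread over all genes. The purpose of the comparison, per the series' design text, was to follow expression from day 4 to day 7.

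BAF complexes slide and evict nucleosomes with an ATPase motor (Smarca4 or Smarca2), and their other subunits come from small families of paralogs. In mouse embryonic stem cells the complex holds Smarcc1 as its scaffold, together with Smarcd1, Actl6a and the PHD-finger subunits Phf10 or Dpf2. Smarcc2 joins as cells become neural progenitors, and when progenitors leave the cell cycle to become neurons Actl6b takes the place of Actl6a, Dpf1 and Dpf3 that of Phf10 and Dpf2, and Ss18l1 that of Ss18. These exchanges are known from mouse brain and cultured mouse cells and are given as background, not as a result of these arrays.

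The sequence just around the start of each gene is shown for the subunits on which the values below turn: the scaffold pair, whose ratio stood apart between the days, and the 4 subunits of the neuronal complex. The sequences are RefSeq's for build GRCm38.p6, 250 bases before to 50 bases after the annotated start, read 5′ to 3′ on the strand of the gene. All 10 genes matched an entry. In the scaffold pair, capitals mark the GC box (GGGCGG on either strand). The Smarcc2 window lies at chr10:128458986-128459285, plus strand, and the Smarcc1 window at chr9:110131774-110132073, plus strand.
Smarcc2: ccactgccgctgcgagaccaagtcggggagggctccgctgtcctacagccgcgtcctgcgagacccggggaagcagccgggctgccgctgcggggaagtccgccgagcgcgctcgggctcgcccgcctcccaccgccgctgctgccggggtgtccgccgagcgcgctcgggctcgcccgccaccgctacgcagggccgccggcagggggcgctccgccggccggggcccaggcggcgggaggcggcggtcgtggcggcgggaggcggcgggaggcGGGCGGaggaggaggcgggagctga
Smarcc1: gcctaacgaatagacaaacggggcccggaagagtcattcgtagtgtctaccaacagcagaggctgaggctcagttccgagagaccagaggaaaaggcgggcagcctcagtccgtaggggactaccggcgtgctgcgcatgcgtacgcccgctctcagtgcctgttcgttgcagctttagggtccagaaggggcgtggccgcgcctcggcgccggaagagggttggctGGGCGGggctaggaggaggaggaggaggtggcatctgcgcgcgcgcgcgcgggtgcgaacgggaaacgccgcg

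In the windows of the neuronal subunits, capitals mark the CCAAT box (CCAAT on either strand), which is found in those of Actl6b, Dpf1 and Dpf3 and not in that of Ss18l1. They lie at chr5:137553296-137553595, plus strand (Actl6b), chr7:29303755-29304054, plus strand (Dpf1), chr12:83487687-83487986, minus strand (Dpf3) and chr2:180042233-180042532, plus strand (Ss18l1).
Actl6b: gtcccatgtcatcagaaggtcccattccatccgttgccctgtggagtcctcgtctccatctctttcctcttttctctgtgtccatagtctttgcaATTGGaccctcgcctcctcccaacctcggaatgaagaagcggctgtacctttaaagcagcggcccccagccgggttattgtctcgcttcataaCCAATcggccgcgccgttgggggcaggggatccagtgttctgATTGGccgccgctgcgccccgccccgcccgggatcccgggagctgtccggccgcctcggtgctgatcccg
Dpf1: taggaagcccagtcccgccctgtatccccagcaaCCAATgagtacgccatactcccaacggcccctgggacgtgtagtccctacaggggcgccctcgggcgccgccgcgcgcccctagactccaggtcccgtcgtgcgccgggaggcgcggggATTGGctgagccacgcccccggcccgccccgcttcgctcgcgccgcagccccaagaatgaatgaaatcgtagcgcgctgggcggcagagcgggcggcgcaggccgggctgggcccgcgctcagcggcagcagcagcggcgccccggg
Dpf3: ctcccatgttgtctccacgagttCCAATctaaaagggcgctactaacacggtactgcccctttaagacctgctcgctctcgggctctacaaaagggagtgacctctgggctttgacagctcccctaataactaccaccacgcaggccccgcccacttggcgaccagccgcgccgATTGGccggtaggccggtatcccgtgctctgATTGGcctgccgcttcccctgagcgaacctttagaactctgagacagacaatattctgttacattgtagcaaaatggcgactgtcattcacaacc
Ss18l1: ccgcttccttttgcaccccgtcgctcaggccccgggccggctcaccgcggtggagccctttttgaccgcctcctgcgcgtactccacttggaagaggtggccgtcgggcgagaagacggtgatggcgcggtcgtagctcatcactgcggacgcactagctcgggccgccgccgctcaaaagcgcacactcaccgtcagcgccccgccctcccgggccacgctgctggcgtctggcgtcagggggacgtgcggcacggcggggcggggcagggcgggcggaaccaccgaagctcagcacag

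The GC box was present in the windows of all 10 genes, against 35.7% of the 32851 windows of the same length in the RefSeq table, which include those of noncoding and predicted genes. The CCAAT box was present in Actl6b, Dpf1 and Dpf3, with 3, 2 and 3 matches, and in none of the other 7 genes, the neuronal Ss18l1 among them. It occurs in 37.4% of all windows, a share close to 3 of 10. The median window of the 10 genes was 71.5% G and C with 37 CpG dinucleotides, against 52.7% and 7 over all windows. Among the 10 genes Dpf3 had the lowest content, at 55.3% with 17 CpG, and Phf10 the highest, at 87% with 62. Both motifs were chosen after the sequences had been seen, and are given as a description.

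Values are RMA log2 signals as the authors deposited them, so that 1 unit is a 2-fold difference. The signal of a gene cannot be set against that of another gene, since probe sets differ in their response. The median of an array lay between 5.68 and 5.77, and replicates correlated over all probe sets with r = 0.991 on day 7 and r = 0.986 on day 4, against 0.972 to 0.978 between days. Among marker lists chosen with earlier results of these data known, limma called 9 of 10 neural progenitor markers higher on day 7. Of 10 pluripotency markers it called 6 lower. Nanog, Zfp42, Esrrb and Klf4 were not called, and Klf4 was higher on day 7 (log2 difference 0.56). Of 5 retinal markers 3 were called higher (Rax, Lhx2 and Mitf), while Six3 and Six6 were not called. Six3 replicates were 1.89 log2 apart on day 4, and those of Six6 2.22 on day 7. Such lists describe the samples and are no independent check of the labels. Of 5 genes of dividing cells limma called 0, with 1 at an unadjusted p under 0.05. Calls are those of limma at an adjusted p under 0.05 over all 22180 genes. In these bulk samples fewer cells of a type and less RNA per cell cannot be told apart.

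None (0) of the 8 measured genes was called by limma, where 10.5% of all genes were, 6.15% higher and 4.33% lower on day 7. At an unadjusted p under 0.05 limma gave 1 of the 8, Smarcc2, against 23.1% of all genes. The differences of day 7 minus day 4 ran between -0.05 and 0.48 log2, with a median of 0.051 beside -0.004 over all genes, and the median size of a difference was 0.058 log2 beside 0.179. The arrays of the days did not overlap for 2 of the 8, Smarcc2 and Ss18l1, both higher on day 7. That is 25%, against 50.8% of all genes, or 25.6% counting those higher on day 7. For 7 of the 8 limma's 95% interval of the difference lay inside a 2-fold change in either direction. Dpf3 was the exception. These intervals lean on the variance prior. Actl6b, counted among the 7, had day 4 replicates 0.91 log2 apart and lay below the median level, where background shrinks folds. A 2-fold change of its transcript is therefore not excluded.

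**Figure D1:**
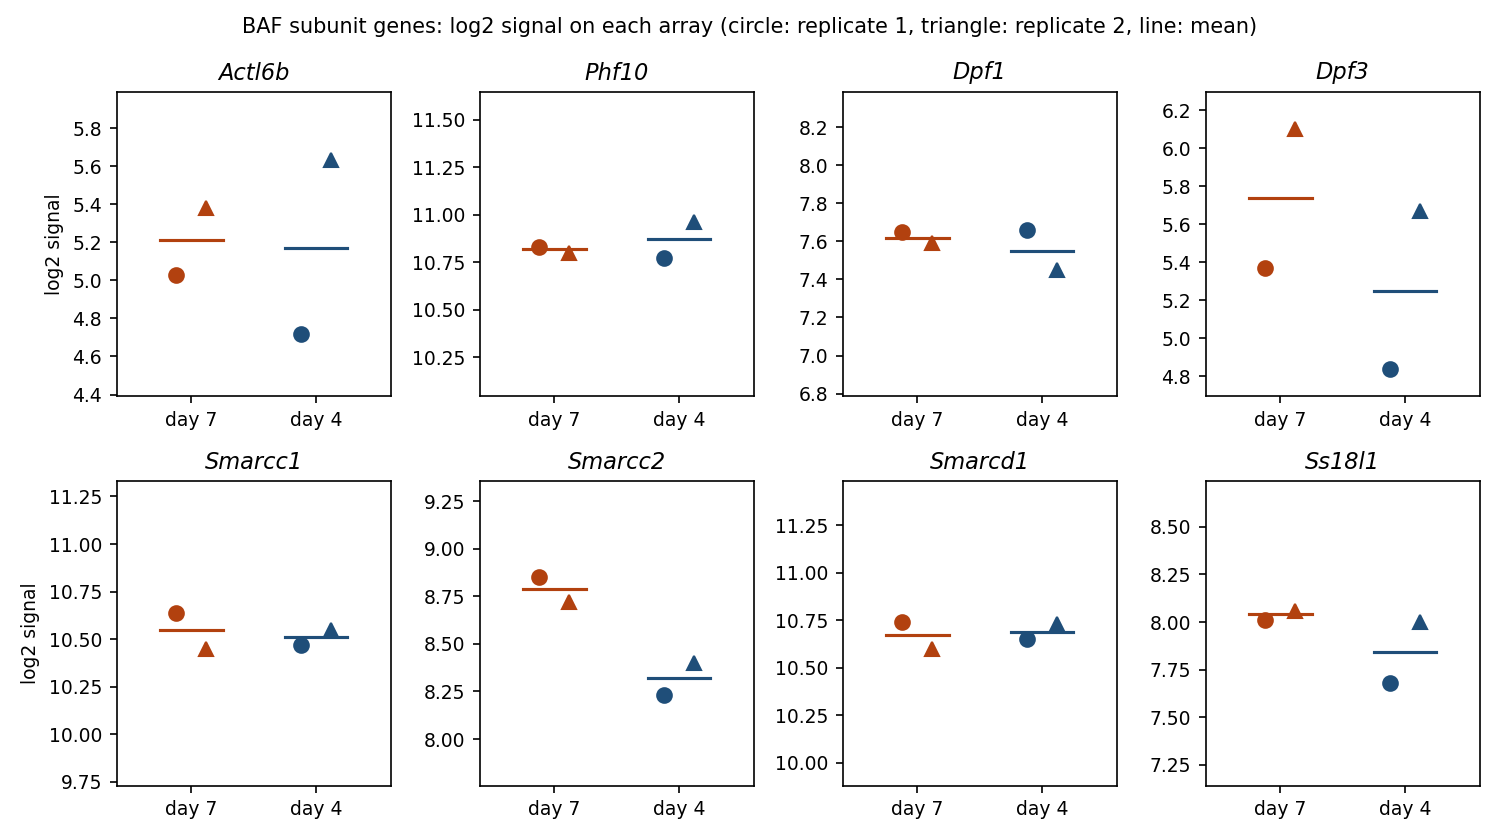
Log2 signal of the 8 measured BAF subunit genes on each array, day 7 left of day 4, with the mean of each day as a line. Every vertical axis spans the same number of log2 units around the gene's own mean, so heights can be compared within a panel but not levels between panels. The days of Smarcc2 stand apart by 0.32 log2, and those of Actl6b and Dpf3 overlap widely.

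The scaffold subunits Smarcc1 and Smarcc2 hold the complex together and are close paralogs. Smarcc2 (probe set 17238494), the scaffold that joins in neural progenitors, had a log2 signal of 8.85 and 8.72 on day 7, against 8.23 and 8.40 on day 4. Both day 7 arrays were higher than both day 4 arrays, and the distance between the days, 0.32 log2 at the nearest, exceeded the distance between replicates, 0.13 on day 7 and 0.17 on day 4. The mean was 8.79 ± 0.09 on day 7 and 8.32 ± 0.12 on day 4 (SD, n = 2 each), a log2 difference of 0.47 (SE 0.147, 95% interval 0.12 to 0.81), or 1.38-fold. The difference did not pass the threshold over all genes (limma, adjusted p = 0.0994). It had an adjusted p of 0.0432 where only genes above the median level were tested, and 0.0432 to 0.443 over the alternatives tried.

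Smarcc1 (probe set 17522284), the scaffold of the stem cell complex, stood at 10.64 and 10.45 on day 7, against 10.47 and 10.55 on day 4. Both day 4 values lay between the day 7 values. The log2 difference was 0.04 (SE 0.146, 95% interval -0.31 to 0.38, adjusted p = 0.93), and a fall of Smarcc1 below 0.809-fold lay outside its interval. Within each array, the log2 ratio of Smarcc2 over Smarcc1 was 0.40 and 0.46 above its day 4 mean on day 7, against -0.04 and 0.04 on day 4. The ratio was therefore higher by 0.43 log2 on day 7, or 1.35-fold, with an SD of 0.04 on day 7 and 0.06 on day 4 (n = 2 each). The days did not overlap, and the exact two-sided permutation p was 0.333, the smallest that 2 arrays against 2 can give. A random split of 4 arrays sets the days apart that often, and 4 pairs were tested, so this ratio's gap is only described. Such a ratio compares the changes of a pair of probe sets and does not tell which protein was more abundant.

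The PHD-finger subunits read histone tails and include Phf10 in progenitor complexes and Dpf1 and Dpf3 in neuronal ones. Phf10 (probe set 17341132) stood at 10.83 and 10.80 on day 7, against 10.77 and 10.96 on day 4, so that the day 7 values lay between the day 4 values. Its log2 difference was -0.05 (SE 0.145, 95% interval -0.39 to 0.29, adjusted p = 0.901). A dimmer probe set of the same gene (17341148) read otherwise, with 8.50 and 8.44 on day 7, against 8.10 and 8.02 on day 4. There both day 7 arrays were higher, by a log2 difference of 0.40 (SE 0.146, 95% interval 0.04 to 0.77), with an adjusted p of 0.256 over all probe sets of the table in limma. The probe sets of Phf10 thus disagree, and neither had an adjusted p under 0.05.

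Dpf1 (probe set 17476125), a PHD-finger subunit of neurons, stood at 7.65 and 7.59 on day 7, against 7.66 and 7.45 on day 4. The day 7 values lay within the range of day 4, with a log2 difference of 0.06 (SE 0.148, 95% interval -0.28 to 0.41, adjusted p = 0.874). Dpf3 (probe set 17282403), which is also a subunit in heart and skeletal muscle, stood at 5.37 and 6.10 on day 7, against 4.84 and 5.67 on day 4. On each day replicate 2 was the higher array, by 0.74 log2 on day 7 and 0.83 on day 4, and day 7 replicate 1 fell between the day 4 arrays. The log2 difference of Dpf3, 0.48 (SE 0.324, 95% interval -0.28 to 1.25, adjusted p = 0.47), was the largest of the 8 and had the widest interval. When 1 array was left out, the difference was 0.85 (day 7 replicate 1), 0.11 (day 7 replicate 2), 0.07 (day 4 replicate 1) or 0.90 (day 4 replicate 2). Among 9 heart and muscle markers 0 rose and 1 fell in limma (2 at an unadjusted p under 0.05), with a log2 summed level of 8.84 to 8.96 on day 7 against 8.98 to 9.27 on day 4. The part of other cell types in the Dpf3 signal was not tested. The log2 ratio of Dpf1 over Phf10 was higher by 0.12 on day 7 (exact permutation p = 1) and that of Dpf3 over Phf10 by 0.53 (exact permutation p = 0.667), and the days overlapped for both ratios. Dropping 1 array at a time gave -0.09 (day 4 replicate 2 dropped) to 0.32 (day 4 replicate 1 dropped) for Dpf1 over Phf10, so its direction turned. For Dpf3 over Phf10 it gave 0.15 (day 7 replicate 2 dropped) to 0.91 (day 7 replicate 1 dropped).

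**Figure D2:**
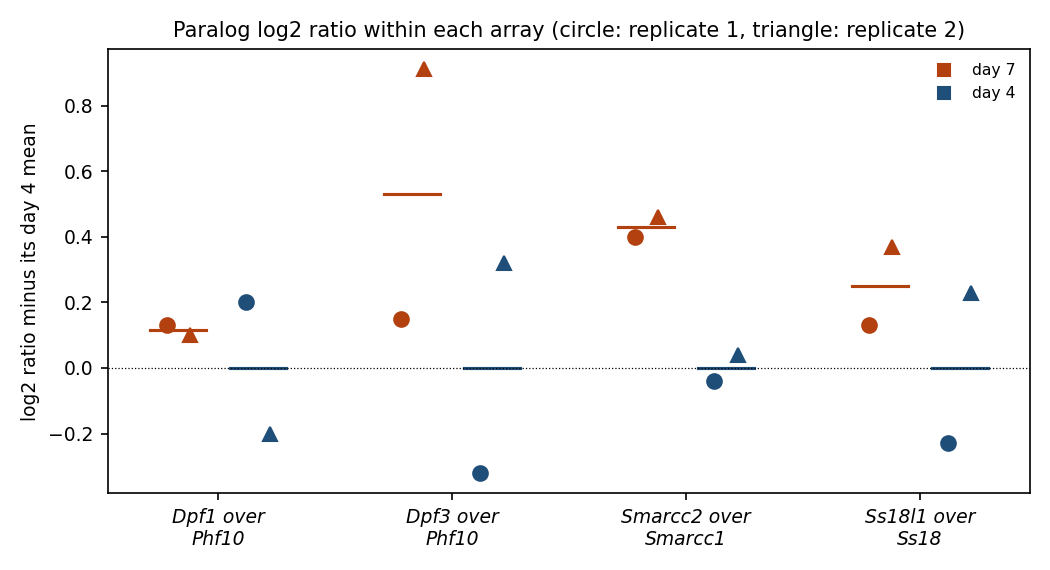
Log2 ratio of each measured paralog pair within each array, minus the pair's day 4 mean, with day 7 left of day 4 and lines for the day means. The days are apart for Smarcc2 over Smarcc1 (0.40 and 0.46 on day 7, against -0.04 and 0.04 on day 4) and overlap for the other 3 pairs.

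Actl6b (probe set 17443596) encodes the actin-related subunit that replaces Actl6a in neurons and is known there for its part in dendrite growth. It stood at 5.03 and 5.38 on day 7, against 4.72 and 5.63 on day 4. The day 7 arrays lay inside the range of day 4, whose replicates were 0.91 log2 apart, and replicate 2 was the higher array on each day. The log2 difference was 0.04 (SE 0.292, 95% interval -0.65 to 0.73, adjusted p = 0.972). Its direction turned when day 7 replicate 2 (-0.14) or day 4 replicate 1 (-0.42) was left out. Ss18l1 (probe set 17380680), the calcium-responsive transactivator that replaces Ss18 in neurons, stood at 8.01 and 8.06 on day 7, against 7.68 and 8.00 on day 4. The day 7 arrays were the higher ones, but by 0.01 log2 at the nearest, while the day 4 replicates were 0.32 apart. The log2 difference was 0.20 (SE 0.161, 95% interval -0.18 to 0.58, adjusted p = 0.568), and the ratio of Ss18l1 over Ss18 was higher by 0.25 log2 with overlapping days (exact permutation p = 0.667). Leaving out 1 array at a time gave 0.04 (day 4 replicate 1 left out) to 0.36 (day 4 replicate 2 left out) for Ss18l1 and 0.02 to 0.48 for the ratio, with the same arrays at the ends.

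Smarcd1 (probe set 17314872) links the complex to transcription factors in stem cells. It stood at 10.74 and 10.60 on day 7, against 10.65 and 10.73 on day 4. Both day 4 arrays lay between the day 7 arrays, with a log2 difference of -0.02 (SE 0.142, 95% interval -0.36 to 0.31, adjusted p = 0.96). The sign turned when each array was centred on its median (0.02). A dimmer probe set of Smarcd1 (17321620) had 7.74 and 8.30 on day 7, against 7.94 and 7.82 on day 4. That difference was 0.14 log2 (SE 0.222, adjusted p = 0.848 over all probe sets), with day 7 replicates on either side of day 4.

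The remaining subunit genes of BAF, of PBAF and of the non-canonical complex were described from a list of 21 measured genes. limma called 2 higher and 1 lower on day 7 and left 18 uncalled, which is 14.3% called beside 10.5% of all genes, and the median difference was 0.057 log2. At an unadjusted p under 0.05 limma gave 7 of the 21, beside 23.1% of all genes. The days did not overlap for 14 of them (66.7%), beside 50.8%. Smarca2, the alternative ATPase motor, rose 2.03-fold. It stood at 8.19 and 8.45 on day 7, against 7.06 and 7.53 on day 4 (log2 difference 1.02, SE 0.196, adjusted p = 0.0182). Dropping day 7 replicate 1 gave Smarca2 an adjusted p of 0.073, and dropping day 7 replicate 2 gave 0.137. Smarca4, the motor of the stem cell complex, stood at 11.29 and 11.27 on day 7, against 10.93 and 11.15 on day 4 (log2 difference 0.24, 95% interval -0.11 to 0.59, adjusted p = 0.426). The difference between the motors' changes was not tested.

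Bcl7a, a small accessory subunit, rose by 0.60 log2, with 9.12 and 9.09 on day 7, against 8.48 and 8.54 on day 4 (adjusted p = 0.0351). Leaving out any array ended that call. The adjusted p was 0.219 or 0.186 with day 7 replicate 1 or 2 left out, and 0.0893 or 0.0568 with day 4 replicate 1 or 2 left out. Bcl11a, a zinc-finger subunit also known as a transcription factor of blood and brain, was 2.28-fold lower, with 6.89 and 7.30 on day 7, against 8.56 and 8.00 on day 4 (log2 difference -1.19, adjusted p = 0.0191). Dropping day 7 replicate 1 or 2 gave Bcl11a an adjusted p of 0.144 or 0.0507. A dimmer Bcl11a probe set was lower as well, by a log2 difference of -0.64 (adjusted p = 0.0958 over all probe sets). Among the paralogs of the 8 genes, Smarcd2 had 7.48 and 7.70 on day 7, against 8.08 and 8.18 on day 4 (log2 difference -0.54, adjusted p = 0.07). Dpf2 had a log2 difference of 0.09 (adjusted p = 0.817) and Ss18 one of -0.05 (adjusted p = 0.91).

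**Figure D3:**
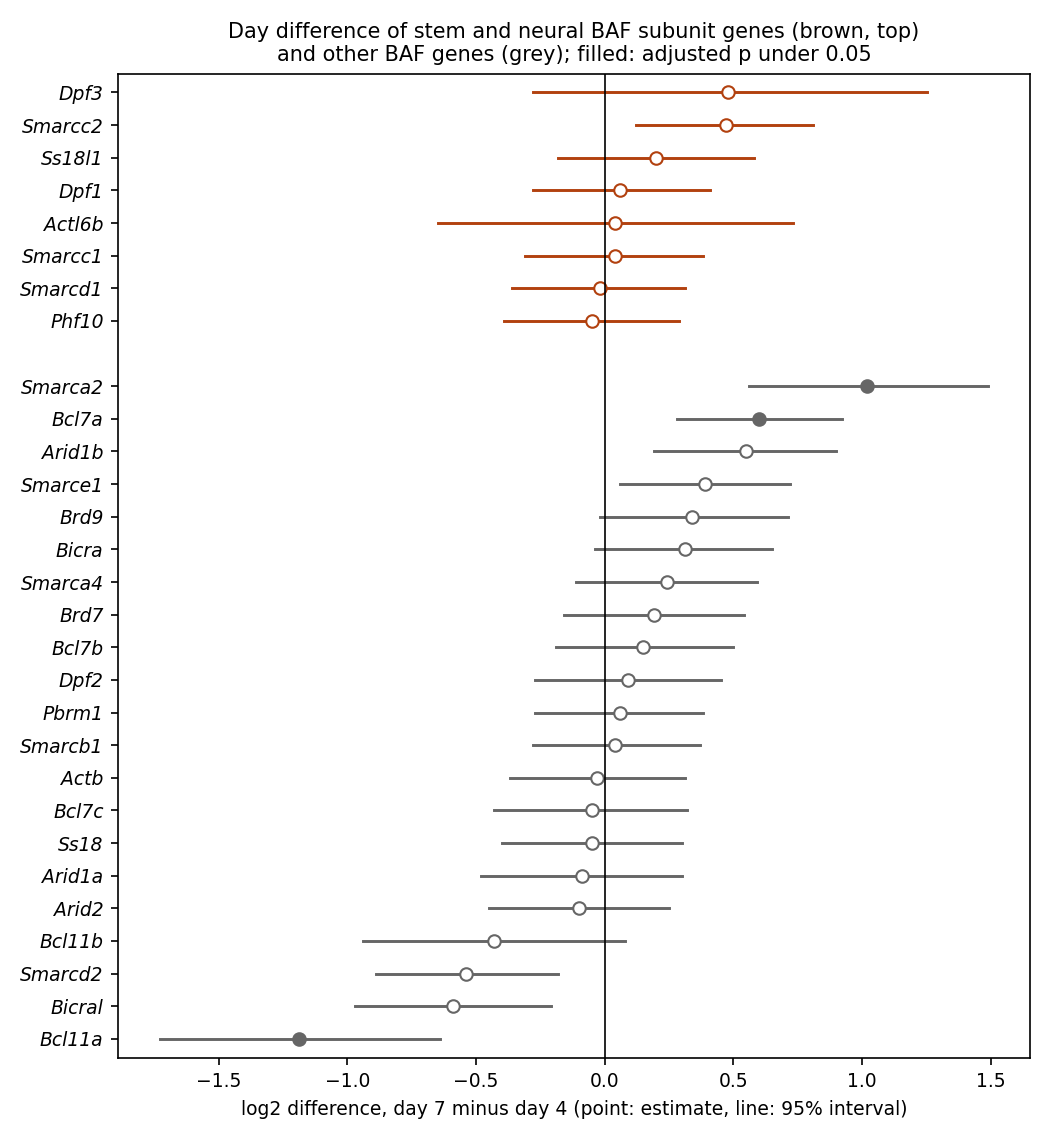
Log2 difference of day 7 minus day 4 with its 95% interval for the 8 measured stem and neural BAF subunit genes (brown, above) and 21 other BAF genes (grey, below), filled where limma called the gene. Among the 8 genes the interval of Smarcc2 (0.12 to 0.81) leaves out 0, and the filled points are Smarca2, Bcl7a and Bcl11a.

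Actl6a is also a subunit of the INO80, SRCAP and TIP60 complexes, which exchange histone variants and acetylate histones. limma called 0 of 27 measured genes of these complexes (2 at an unadjusted p under 0.05), beside 10.5% and 23.1% of all genes, with a median difference of 0.003 log2. The largest difference was that of Ino80, the motor of its complex, at 9.45 and 9.46 on day 7, against 9.90 and 9.87 on day 4 (log2 difference -0.43, adjusted p = 0.103). Of 22 genes of ISWI, CHD and related remodellers 2 rose and 2 fell, which is 18.2% called beside 10.5% of all genes, and 18 were not called. At an unadjusted p under 0.05 limma gave 10 of the 22, beside 23.1% of all genes. The days did not overlap for 15 of them (68.2%), beside 50.8%. Chd3, a motor of the NuRD complex, rose 2.36-fold, with 8.73 and 8.60 on day 7, against 7.48 and 7.38 on day 4 (adjusted p = 0.00233, and 0.0326 at most when 1 array was left out). A dimmer Chd3 probe set stood at 7.21 and 6.82 on day 7, against 6.08 and 6.22 on day 4. It was higher too, by 0.87 log2 (limma, unadjusted p = 0.00422, adjusted p = 0.0835 over all probe sets). That adjustment covers 41345 probe sets and cannot be set against the calls over 22180 genes. Baz1a, an ISWI partner, rose 2.05-fold (adjusted p = 0.00736, and 0.0749 with day 7 replicate 1 left out). Chd9 was 1.84-fold lower (adjusted p = 0.0252, and 0.184, 0.0957 and 0.067 with day 7 replicate 1, day 7 replicate 2 and day 4 replicate 1 left out in turn). Hells, a remodeller needed for DNA methylation, was 1.52-fold lower (adjusted p = 0.0365, and 0.202, 0.208 and 0.101 with the same arrays left out).

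**Figure D4:**
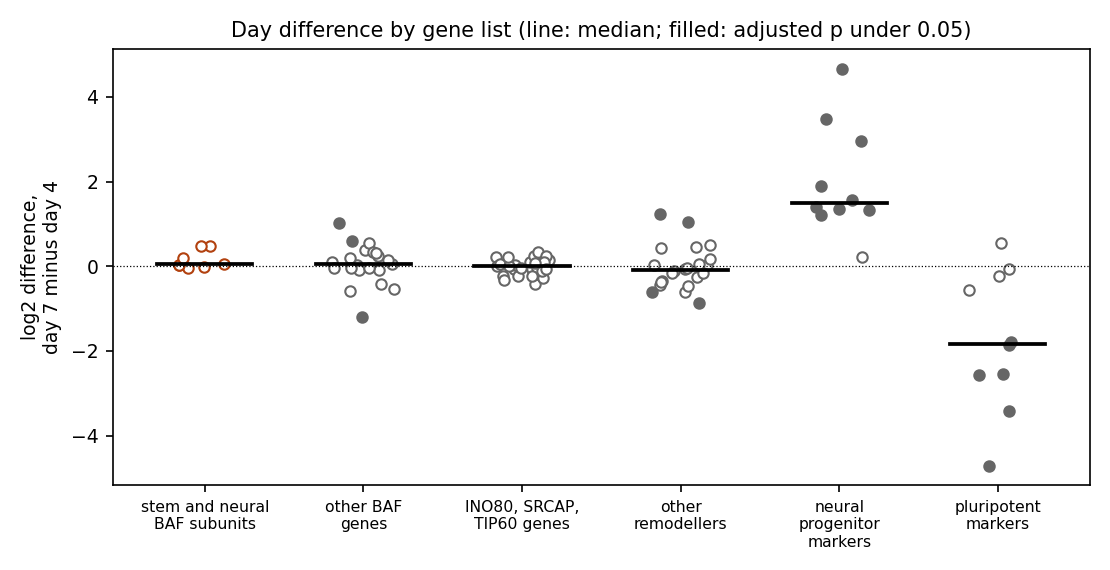
Log2 difference of day 7 minus day 4 for each measured gene of 6 lists, with the median of a list as a line and filled points where limma called the gene. The 8 stem and neural BAF subunit genes lie between -0.05 and 0.48, with a median size of 0.058 beside 0.179 over all genes. Neural progenitor markers have a median of 1.49 and pluripotency markers one of -1.83. The lists were chosen with earlier results of these data known, so the marker medians are no yardstick for the 8 genes.

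In mouse neurons the exchange of Actl6a for Actl6b is known to pass through microRNAs: REST represses the genes of miR-9 and miR-124, and miR-9-3p and miR-124 act on the Actl6a transcript. Mir9-1, Mir9-2 and Mir9-3 give the same mature sequences, shown here from RefSeq (GRCm38.p6) because miR-9-3p is the arm tied to Actl6a, with the seed, bases 2 to 8, in capitals. In Mir9-2, the gene with the largest rise, the arms lie on the plus strand at chr13:83738821-83738843 (miR-9-5p) and chr13:83738858-83738879 (miR-9-3p).
miR-9-3p: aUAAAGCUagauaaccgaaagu
miR-9-5p: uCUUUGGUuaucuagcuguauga

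The arrays measured these genes through probe sets that cannot tell the arms or the processed forms apart. Mir9-2 stood at 8.35 and 7.77 on day 7, against 3.01 and 2.92 on day 4, a rise of 5.09 log2 (adjusted p = 5.97e-05). The array medians were 5.68 to 5.77, so its day 4 values were dim and the size of the rise depends on background. The brighter probe set of Mir9-1 rose by 3.08 log2 (adjusted p = 0.000141) while a dimmer one had a difference of 0.08 (adjusted p = 0.958 over all probe sets), and Mir9-3 had a difference of 0.35 (adjusted p = 0.224). Of the miR-124 genes, Mir124a-2 had a log2 difference of -0.47 (adjusted p = 0.328) and Mir124a-3 one of 0.03 (adjusted p = 0.956). Mir124a-3 stood at 2.86 and 2.75 on day 7, against 2.93 and 2.62 on day 4. Mir124a-2 stood at 4.97 and 5.47 on day 7, against 5.40 and 5.99 on day 4. Both lay below the median level of all genes, where background could hide a change. Rest itself stood at 8.02 and 8.16 on day 7, against 8.39 and 8.28 on day 4, with a difference of -0.24 (adjusted p = 0.396), and its partner Rcor1 had 0.44 (adjusted p = 0.14). The splicing regulators Ptbp1 and Ptbp2, which change over in neurons, had differences of -0.09 (adjusted p = 0.803) and 0.41 (adjusted p = 0.124). With an intensity trend in the variance prior Ptbp2 had an adjusted p of 0.00806, and 0.00822 with robust estimation. Neuron markers were mixed: 3 of 14 rose (Dcx, Elavl4 and Nefm), 1 fell (Stmn2) and 10 were not called. The log2 summed level of the 14 was 11.47 to 11.49 on day 7, against 11.37 to 11.53 on day 4.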

How the data were processed

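Per the labels' protocols, total RNA of the 4 samples was made into biotin-labelled cDNA for Affymetrix arrays. The authors deposited log2 signals per probe set, and the submitters' processing notes name RMA and Partek 6.5. Settings and genome build are not given in the sources used here. RMA quantile-normalizes arrays, which would hide a shift common to most genes, and background shrinks folds of dim genes. The table held 0 unused sample columns.

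Of 41345 probe sets 23521 named 1 gene, 1814 several and 16010 none, and the brightest probe set was kept for each of 22180 genes. Day 7 minus day 4 was fitted with limma 3.58.1 in R 4.3.3 (no trend, two-sided, Benjamini-Hochberg over all genes, 2 residual degrees of freedom), after tests on simulated data. The variance prior added 5.07 degrees of freedom, so limma's SE, intervals and p-values rest largely on spread shared over all genes. Intervals are limma's 95% intervals for single genes. The ranges of adjusted p exclude the ordinary linear model. Of 6 paralog pairs 4 were measured and tested by exact permutation (SciPy 1.17.1). Always named were Smarca4, Smarca2, Dpf2, Smarcd2, Ss18, Rest and the microRNA and splicing regulators. Each list added up to 4 called genes in each direction, or failing that its gene of greatest difference, and markers came from their own lists. The members and lists were chosen with earlier results of these data known. Same-numbered arrays deviated together with r = 0.186 over genes, but 2 pairs without a shared source in the labels were not taken as pairs. The number of arrays limits the precision.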

Additional observations from a re-analysis of the deposited data

How the results depend on the processing

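The count of 0 called genes among the 8 BAF subunits held under the replicate block, quantile normalization and median centring. It also held under the filter at the 25th percentile of level, an intensity trend with and without robust estimation, and the mean of probe sets. Without a variance prior the count was 0 too, but only 3 of all genes were called there, so that setting could hardly change it. A stricter adjusted p under 0.01 could only leave the count at 0. The count became 1 (Smarcc2) above the 50th percentile, where 6 of the 8 were tested, and 1 at an adjusted p under 0.1. With the replicate number as a block limma called 2770 genes in place of 2324, 0 of the 8 and 4 in place of 3 other BAF genes. The adjusted p of Dpf3 was then 0.0675. Small differences turned sign: Phf10 to 0.177 and Smarcd1 to 0.06 with the mean of probe sets, and Smarcd1 to 0.019 with median centring. Leaving out 1 array, differences ran from -0.419 to 0.491 for Actl6b, -0.149 to 0.045 for Phf10, -0.041 to 0.168 for Dpf1, -0.053 to 0.13 for Smarcc1 and -0.093 to 0.045 for Smarcd1, and from 0.385 to 0.553 for Smarcc2. The ratio of Dpf1 over Phf10 changed by -0.11 in place of 0.12 with the mean of probe sets, where the second Phf10 probe set enters. Over all genes the calls were 887 to 2500 without 1 array (887 without day 7 replicate 1, 994 without day 7 replicate 2), 3 without a variance prior, 1323 of 41345 over all probe sets and 1078 at an adjusted p under 0.01. Other BAF genes had 0 to 3 calls without 1 array (0 without either day 7 array), 6 above the 50th percentile, 6 with an intensity trend, 7 with the robust trend and 0 without a variance prior. The INO80, SRCAP and TIP60 genes had 1 call above the 50th percentile and 2 with either trend. Other remodellers had 1 to 5 calls without 1 array (1 without day 7 replicate 1, 2 without day 7 replicate 2 or day 4 replicate 1), 7 above the 50th percentile and with either trend, and 0 without a variance prior. The causes were not tested. Leaving out an array leaves 1 sample for its day, assumed to vary like the other day. Actl6b and Dpf3 lay below the median level of all genes, where background takes a larger part of the signal.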
